A study of Homo sapiens with 12 samples.

Results

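The mRNAs of 10 enzymes around the handling of 5-fluorouracil (5-FU) were followed in HCT116 cells. They convert 5-FU into its active nucleotides, compete for a substrate of that conversion, or break the drug down. CDA is an exception, since it acts on cytidine and deoxycytidine nucleosides and their fluorinated analogs and not on 5-FU itself. The members were chosen by gene symbol and comprised UMPS, PPAT, UPP1, TYMP, UCK1, UCK2, UCKL1, TK1, DPYD and CDA. All 10 had a row among the 60580 genes listed per library, and all 10 were among the 16123 genes tested. HCT116 cells are an established line from a human colorectal carcinoma and have functional p53. 5-FU is a uracil analog that has to be turned into nucleotides inside the cell before it acts.

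RNA was sequenced from 4 states. Cells of either genotype, WT or miR-34a/b/c-KO (KO), were kept for 48 h in 5-FU at 4 µM or in DMSO, the solvent control. In the KO cells the regions that encode mature miR-34a and miR-34b/c had been deleted with CRISPR/Cas9, and the WT cells had received the empty Cas9 plasmid. The study obtained 3 single-cell clones per genotype, and whether the replicates correspond to these clones is not given in the sources used here, so that differences between genotypes may include differences between clones.

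5-FU enters the uracil salvage routes. Orotate phosphoribosyltransferase, which is part of UMPS, joins it directly to the ribose phosphate of PRPP. Uridine phosphorylase followed by uridine kinase gives the ribonucleotide in a pair of steps, and thymidine phosphorylase followed by thymidine kinase gives the deoxyribonucleotide FdUMP, which blocks thymidylate synthase. Dihydropyrimidine dehydrogenase, the product of DPYD, starts the breakdown of 5-FU and in patients removes most of a dose, chiefly in the liver.

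Each state was labelled with 3 libraries, 12 in all. The library labelled WT 5-FU replicate 1 held the same counts as WT DMSO replicate 3 (0 of 60580 genes differed) and was left out, which leaves 11 libraries and n = 2 for WT cells treated with 5-FU (labelled replicates 2 and 3). The file headers number those 2 libraries 1 and 2. Total counts ranged from 22831415 to 39064210. All 5 epithelial markers (EPCAM, CDH1, KRT8, KRT18, KRT19) were detected in every library, with a summed level in CPM (counts scaled to library size) of 5244 to 5531 in untreated WT, 5445 to 5642 in untreated KO, 11101 to 12149 in treated WT and 8531 to 9005 in treated KO cells. Of the 12 markers of fibroblasts, leukocytes and endothelium, COL1A1, CD68 and VWF accounted for most of the signal. DCN, LUM and PTPRC had at most 1 count in a library, and CD3E at most 3. The summed fibroblast markers ran from 22 to 26.9 CPM in untreated WT, 46.5 to 50.8 in untreated KO, 49.9 to 60.4 in treated WT and 70.3 to 71.6 CPM in treated KO cells. The leukocyte markers summed to 15.3 to 19.5 CPM in untreated and 32.8 to 36.4 CPM in treated cells of both genotypes. The endothelial markers summed to 6.13 to 6.42 CPM in treated WT cells and to at most 1.86 CPM in the other 3 states. The part of these markers in the results below was not tested. The rows of the precursor genes (MIR34A, MIR34B, MIR34C) held 0 counts throughout, so that the deletion could not be checked there. The host transcript MIR34AHG averaged 4.83 CPM in untreated WT and 22.2 CPM in untreated KO cells, and part of it lies outside the deleted region, so that it does not check the deletion. CDKN1A was read as a check of the treatment labels. It averaged 167 CPM in untreated WT, 2077 in treated WT, 469 in untreated KO and 2479 in treated KO cells. Its lowest treated library (1976 CPM) lay above its highest untreated library (488 CPM).

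The sequences below are shown because the 4 states differ in miR-34 and because seed matches link this microRNA to possible target mRNAs. The mature sequences are from RefSeq (GRCh38.p14), with the seed (bases 2 to 8) in capitals; miR-34c-5p was not matched in the table used here.
hsa-miR-34a-5p: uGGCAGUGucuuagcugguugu
hsa-miR-34b-5p: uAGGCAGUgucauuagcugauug
The 2 seeds are shifted by a base against each other. The 3' UTRs of the canonical transcripts (GENCODE release 44, GRCh38) were searched for matches to the miR-34a seed, as CACTGCC (7mer-m8) or as ACTGCCA (7mer-A1), which together make an 8mer. The seed of miR-34b was not searched separately. Such a match was found in 5 of the 10 members, UMPS, UCK2, TK1, DPYD and CDA, against 21.1% of 18717 genes with an annotated 3' UTR. Each site below is exonic and lies in the 3' UTR, with the match in capitals.
UMPS (chr3:124744875-124744903, plus strand, 7mer-A1): tggttcccagaACTGCCAttgctcactct
UCK2 (chr1:165909932-165909960, plus strand, 7mer-m8): gctgtttatccCACTGCCttggaagatgg
TK1 (chr17:78174708-78174736, minus strand, 7mer-m8): tcccttcctgcCACTGCCgcctactggac
DPYD (chr1:97078699-97078728, minus strand, 8mer): aattggatgttCACTGCCAgttgtcttatg
CDA (chr1:20618573-20618601, plus strand, 7mer-m8): cagagaatgccCACTGCCtgtaacagcca
The canonical 3' UTRs of PPAT, UPP1, TYMP, UCK1 and UCKL1 held no match. Their lengths run from 18 bases in TYMP to 1990 in PPAT, and those with a match from 335 bases in CDA to 5189 in UMPS. A match is a description of the letters and was not tested as a binding site. Between untreated KO and WT cells, the log2 differences of the 5 mRNAs with a match were -0.16 (UMPS), -0.31 (UCK2), -0.18 (TK1), 0.14 (DPYD) and 0.22 (CDA), thus of either sign. Those of the 5 mRNAs without a match were -0.45 (PPAT), -0.52 (UPP1), 0.62 (TYMP), 0.54 (UCK1) and 0.34 (UCKL1), also of either sign.

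The levels of the members differed widely. On the scale of RPKM, which divides CPM by the length of the canonical transcript, TK1 stood highest in untreated WT cells with 240.5 ± 7.39 (SD, n = 3) and DPYD lowest with 0.745 ± 0.0064, 323-fold apart. PPAT followed TK1 with 43.6 ± 1.11 RPKM. TYMP (23.5 ± 0.906), UCK2 (22.2 ± 0.461) and CDA (21.8 ± 0.976) lay within their spread of each other, and UCKL1 came next with 19.8 ± 0.403. UCK1 (10.2 ± 0.311) and UMPS (9.81 ± 0.421) could not be ordered beyond their spread, and UPP1 was at 7.0 ± 0.640. With the length of all annotated exons in place of the canonical transcript, TYMP moved from rank 3 to rank 6 (10.3 RPKM), while TK1 stayed highest and DPYD lowest. The same gene was at each end in all 4 states. UPP1, at 7.0 RPKM on the canonical transcript, was at 2.54 with all exons, and DPYD, whose product starts 5-FU breakdown, was below 1 on both.

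**Figure D1:**
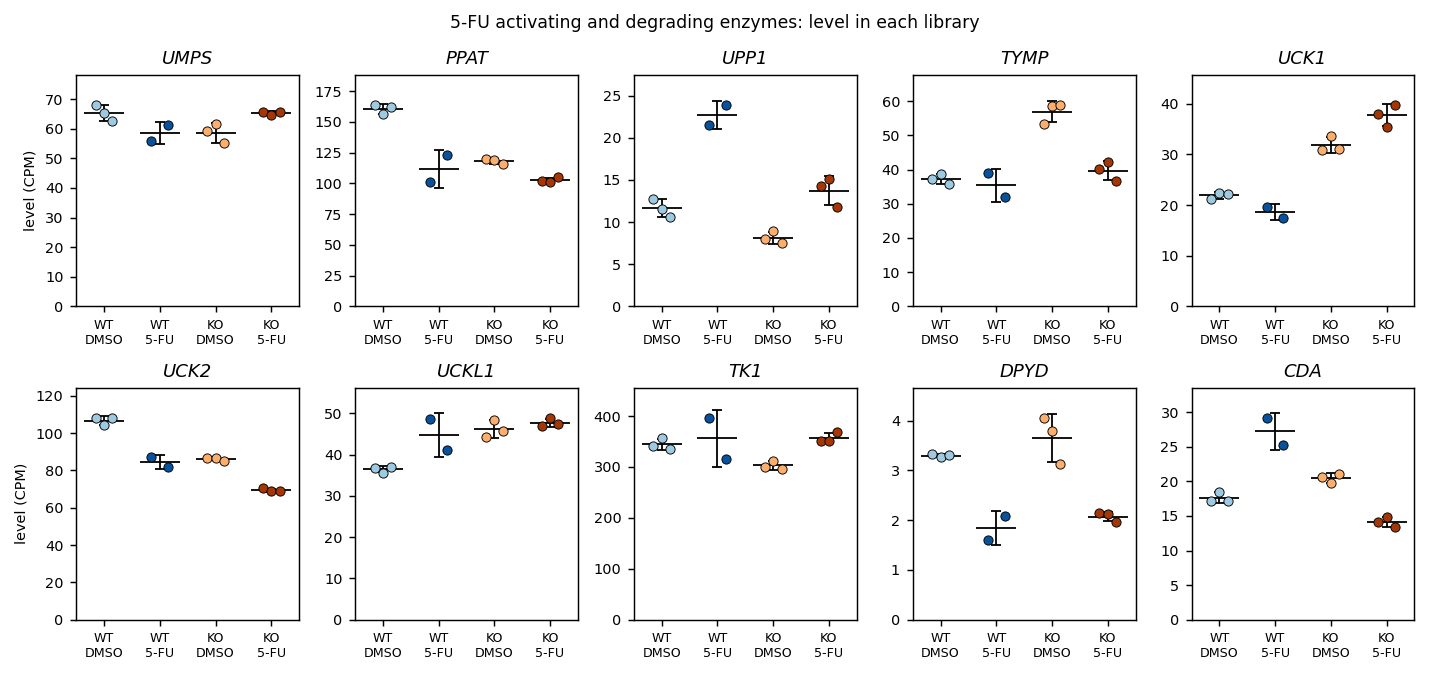
Level of each of the 10 mRNAs in CPM (y axis, from 0, a scale per gene) in the 11 libraries, by state (x axis; KO, miR-34a/b/c-KO). Points are libraries, horizontal bars means and whiskers SD. CDA is higher with 5-FU in WT cells and lower with 5-FU in KO cells, while UPP1 is higher and DPYD lower with 5-FU in both genotypes.

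In each comparison below, a gene was called when its Benjamini-Hochberg adjusted p over all 16123 genes (FDR, edgeR quasi-likelihood test) was under 0.05 and its fold change above 1.5. After 5-FU in WT cells, 2 of the 10 members rose (UPP1 and CDA) and 1 fell (DPYD), where 18.5% of all genes tested were called higher and 9.38% lower. After 5-FU in KO cells, 1 rose (UPP1) and 1 fell (DPYD), with 13.3% of all genes called higher and 12.0% lower. Between untreated KO and WT cells, TYMP alone was called, as higher, with 9.10% of all genes called higher and 4.97% lower. Between treated KO and WT cells, UCK1 was called higher and UPP1 and CDA lower, with 7.58% of all genes called higher and 10.6% lower. In the test of whether the response to 5-FU differed between the genotypes (the interaction, KO response minus WT response), CDA was called lower, with 3.42% of all genes called higher and 6.66% lower. That split moves with the scaling: upper-quartile factors gave 551 higher and 1073 lower genes in the interaction, TMM factors 676 and 844, DESeq2 703 and 679, and a fit with an RUVg factor for unwanted variation 419 and 466. Comparisons that share a state share its libraries and are not independent of each other.

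By FDR alone, with no minimum fold change and the called members included, 9 of the 10 members passed between untreated KO and WT cells (46.3% of all genes), 8 after 5-FU in WT cells (60.2%), 9 after 5-FU in KO cells (60.4%), 4 between treated KO and WT cells (49.6%) and 5 in the interaction (26.1%). The median log2 difference of the members was -0.0063 between untreated KO and WT cells (0.026 over all genes), -0.11 after 5-FU in WT cells (0.034) and -0.075 after 5-FU in KO cells (-0.059). It was 0.046 between treated KO and WT cells (-0.046) and 0.029 in the interaction (-0.095). As a group the members thus had no common direction. In bulk RNA, fewer cells with an mRNA and less of it per cell cannot be told apart.

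**Figure D2:**
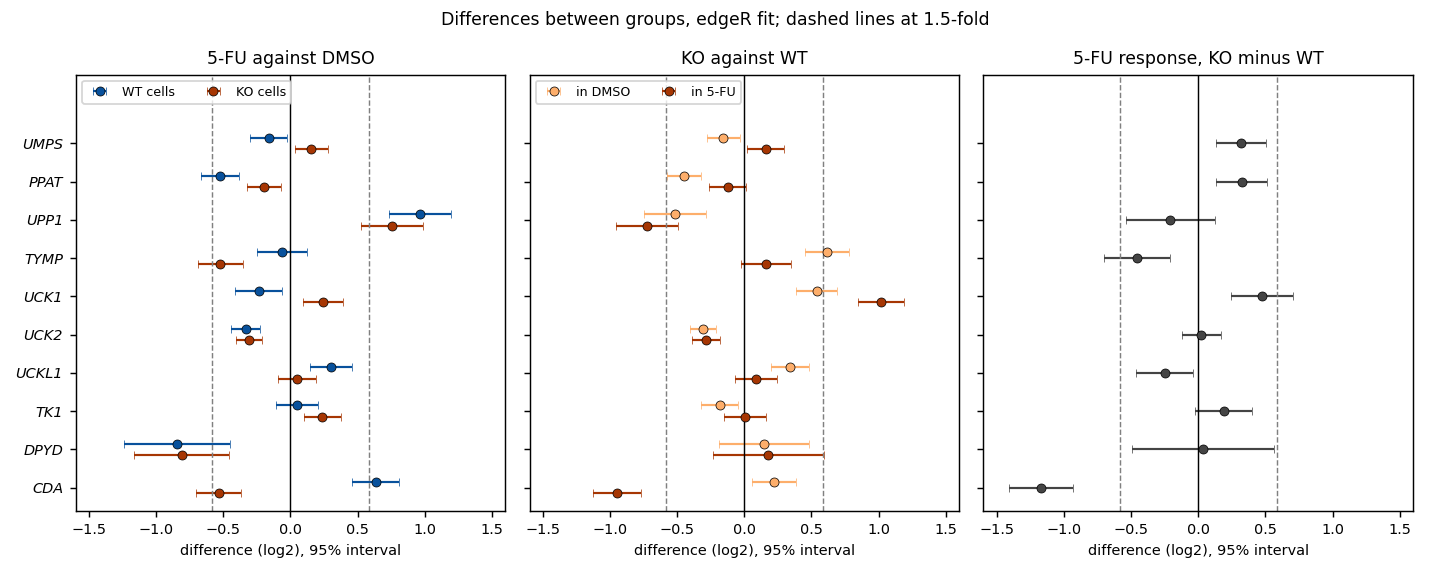
Log2 differences between groups for the 10 members (x axis) with 95% intervals from the edgeR fit, for 5-FU against DMSO (left), KO against WT (middle) and the difference between the 2 responses (right); dashed lines mark 1.5-fold. The CDA interval in the right panel runs from -1.41 to -0.93 and is the only one in that panel that lies wholly beyond a dashed line.

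UMPS (chr3:124730433-124749273, plus strand) encodes the bifunctional enzyme that makes UMP from orotate and joins 5-FU directly to the ribose phosphate of PRPP. It stood at 68.1, 65.3 and 62.5 CPM in untreated WT cells and at 55.8 and 61.1 CPM in WT cells with 5-FU. KO cells had 59.1, 61.7 and 55.1 CPM without and 65.6, 64.4 and 65.7 CPM with 5-FU. Treated libraries thus lay below untreated ones in WT cells and above them in KO cells. The log2 differences were -0.16 ± 0.065 (SE, FDR = 0.0416) in WT and 0.16 ± 0.059 (FDR = 0.0302) in KO cells, each 1.12-fold or less. The responses differed by 0.32 ± 0.087 (FDR = 0.0142). The WT difference was -0.098 without WT 5-FU replicate 2 (FDR = 0.234), and its FDR was under 0.05 in 4 of the 11 fits that left out a library. The KO difference passed in 6 of these 11 fits.

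PPAT (chr4:56393362-56435615, minus strand) encodes the amidophosphoribosyltransferase that commits PRPP to purine synthesis and so draws on the same PRPP as UMPS. Its level was 164, 156 and 162 CPM in untreated WT cells and 101 and 123 CPM in treated WT cells. In KO cells it was 119.5, 119 and 115 CPM without and 102, 101 and 105 CPM with the drug. Untreated WT libraries stood above all others. Relative to DMSO, PPAT was lower with 5-FU by a log2 difference of -0.52 ± 0.066 in WT (FDR = 4.49e-06) and -0.20 ± 0.060 in KO cells (FDR = 0.00843). Without WT 5-FU replicate 3, the value in WT cells was -0.67 and was called, and without replicate 2 it was -0.39. Untreated KO cells differed from untreated WT cells by -0.45 ± 0.059 (FDR = 1.35e-05). The interaction was 0.32 ± 0.089 (FDR = 0.0143), but 0.19 without WT 5-FU replicate 2, and treated KO and WT cells overlapped (-0.12, FDR = 0.13).

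PPAT is transcribed away from PAICS, which encodes a later enzyme of purine synthesis, and their 5' ends lie 126 bp apart (645 bp between the canonical transcripts). The 300-base RefSeq promoter window of PPAT (250 bases before to 50 after its start) is shown because both genes were lower after 5-FU by FDR, with the 236 bases that it shares with the PAICS window in capitals.
PPAT (GRCh38.p14, chr4:56435566-56435865, minus strand): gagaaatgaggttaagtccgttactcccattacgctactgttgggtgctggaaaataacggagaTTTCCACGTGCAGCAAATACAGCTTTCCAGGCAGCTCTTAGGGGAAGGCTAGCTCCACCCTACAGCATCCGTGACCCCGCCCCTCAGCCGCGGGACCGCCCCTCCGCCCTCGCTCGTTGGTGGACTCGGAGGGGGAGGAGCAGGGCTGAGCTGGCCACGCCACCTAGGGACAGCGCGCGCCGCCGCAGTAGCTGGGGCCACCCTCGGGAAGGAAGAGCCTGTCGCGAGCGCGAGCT
PAICS averaged 586 ± 22.5 CPM in untreated WT, 354 ± 22.1 in treated WT, 412 ± 3.77 in untreated KO and 256 ± 7.99 in treated KO cells. It fell by 0.73 ± 0.057 on the log2 scale after 5-FU in WT cells (FDR = 1.65e-08) and by 0.69 ± 0.050 in KO cells (FDR = 6.90e-09). Between untreated KO and WT cells the PAICS difference was -0.51 ± 0.050, beside -0.45 for PPAT. The PAICS responses did not pass as different (interaction 0.040 ± 0.075, FDR = 0.735). Of the other 4 enzymes of the purine route listed, GART, PFAS, ADSL and ATIC, none was called after 5-FU in either genotype (with PAICS, 3 of 5 were lower by FDR alone in WT and 4 in KO cells, beside 28.3% and 33.8% of all genes). All 5 enzymes after PPAT were lower in untreated KO than in untreated WT cells by FDR alone (median -0.35), as were 21.9% of all genes.

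UPP1 (chr7:48088628-48108736, plus strand) encodes uridine phosphorylase, which joins uracil or 5-FU to the ribose of ribose-1-phosphate to give the nucleoside. It gave 12.8, 11.6 and 10.6 CPM in untreated and 21.5 and 23.9 CPM in treated WT cells. KO cells gave 7.97, 8.94 and 7.56 CPM untreated and 14.2, 15.1 and 11.8 CPM treated. The treated libraries lay above the untreated ones in both genotypes without overlap. UPP1 rose 1.95-fold in WT (log2 0.96 ± 0.11, FDR = 1.31e-06) and 1.69-fold in KO cells (0.76 ± 0.11, FDR = 1.74e-05). The difference between the responses was -0.21 with a 95% interval from -0.54 to 0.12 (FDR = 0.347). KO cells held less UPP1 mRNA in both treatments, by -0.52 ± 0.11 untreated (FDR = 0.00113, under 1.5-fold) and by -0.72 ± 0.11 with 5-FU (FDR = 4.80e-05, called). The liver-type relative UPP2 was listed at 0 to 3 counts per library.

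TYMP (chr22:50525752-50530032, minus strand) encodes thymidine phosphorylase, which joins 5-FU to the deoxyribose of deoxyribose-1-phosphate on the way to FdUMP. Its level was 37.2, 38.7 and 35.8 CPM in untreated and 38.9 and 32.0 CPM in treated WT cells. In untreated KO cells it was 53.3, 58.6 and 59.0 CPM, and in treated KO cells 40.2, 42.1 and 36.6 CPM. The 3 untreated KO libraries thus stood above the other 8. TYMP was 1.53-fold higher in untreated KO than in untreated WT cells (log2 0.62 ± 0.078, FDR = 8.56e-06), and the lower end of its 95% interval, 0.45, lies under 1.5-fold. In KO cells it was lower with 5-FU by -0.52 ± 0.078 (FDR = 2.36e-05, under 1.5-fold), and in WT cells the difference was -0.065 ± 0.088 (FDR = 0.544). The responses differed by -0.46 ± 0.12 (FDR = 0.00923), and with 5-FU the genotypes overlapped (0.16, FDR = 0.144). Without WT 5-FU replicate 3 the difference between the responses was -0.59 and was called. Over the 11 fits that left out a library, this difference ran from -0.59 to -0.31. Its highest FDR there was 0.0459, without WT 5-FU replicate 2. TYMP shares exon bases on the same strand with SCO2 (361 bases, 10.0% of the TYMP exon bases) and ODF3B (323 bases, 8.97%), where reads cannot be assigned to a gene with certainty. SCO2 had 326 to 736 counts per library and a difference of -0.18 between untreated KO and WT cells (FDR = 0.108). ODF3B had 38 to 155 counts and a difference of 0.40 (FDR = 0.116). After 5-FU in KO cells the differences were -0.47 for SCO2 (FDR = 0.000398) and -0.84 for ODF3B (FDR = 0.0026, called). In WT cells they were -0.34 for SCO2 (FDR = 0.00874) and 0.098 for ODF3B (FDR = 0.728). The interaction was -0.14 for SCO2 (FDR = 0.492) and -0.94 for ODF3B (FDR = 0.0337, called). The part of the shared bases in the TYMP values was not tested.

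Uridine-cytidine kinases add the phosphate that traps uridine and fluorouridine in the cell. UCK2 (chr1:165827614-165911618, plus strand), the kinase usually high in tumor cells, had 108, 104 and 108 CPM in untreated and 87.2 and 82.1 CPM in treated WT cells. In KO cells it had 86.7, 86.4 and 85.2 CPM untreated and 70.4, 68.8 and 69.1 CPM treated. Genotype and drug each went with a lower level, and the libraries of the treated KO cells were the lowest. The log2 differences for 5-FU were -0.33 ± 0.050 in WT (FDR = 2.72e-05) and -0.31 ± 0.046 in KO cells (FDR = 2.14e-05), both under 1.5-fold. The difference between these responses was 0.023 with a 95% interval from -0.12 to 0.17 (FDR = 0.831). KO cells were lower by -0.31 ± 0.045 untreated (FDR = 3.74e-05) and -0.29 ± 0.051 with 5-FU (FDR = 0.00021). UCK2 overlaps the opposite-strand gene TMCO1 in 142 exon bases (2.03% of its own).

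UCK1 (chr9:131523801-131531264, minus strand), the more widely expressed relative, had 21.2, 22.5 and 22.2 CPM in untreated and 19.7 and 17.5 CPM in treated WT cells. KO cells had 31, 33.7 and 31.1 CPM untreated and 38.0, 35.4 and 39.8 CPM treated. KO libraries stood above all WT libraries. UCK1 was 1.45-fold higher in untreated KO cells (log2 0.54 ± 0.072, FDR = 1.62e-05, not called) and 2.02-fold higher in treated KO cells (1.02 ± 0.082, FDR = 5.96e-08, called). With 5-FU it was lower in WT cells by -0.24 ± 0.082 (FDR = 0.0209) and higher in KO cells by 0.24 ± 0.071 (FDR = 0.00736), and the responses differed by 0.48 ± 0.11 (FDR = 0.00439). Without WT 5-FU replicate 3 the WT difference was -0.16 (FDR = 0.144). UCK1 lies on chromosome 9, where its neighbors were higher in KO cells as well. Of the 40 tested genes nearest to it, 20 on each side, 38 lay above 0 between untreated KO and WT cells, with a median of 0.55, and 18 were called higher. With 5-FU, 35 of the 40 lay above 0, the median was 0.44 and 13 were called higher. The neighbors of the other 9 members had medians from -0.081 to 0.20 between untreated KO and WT cells. The part of the neighborhood in the UCK1 difference was not tested. The opposite-strand neighbor POMT1 shares 6 exon bases with UCK1 and was higher in untreated KO cells by 0.97 ± 0.072 (FDR = 2.47e-08).

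UCKL1 (chr20:63939829-63956416, minus strand) encodes a kinase-like relative. It had 36.8, 35.6 and 36.9 CPM in untreated and 48.6 and 41.0 CPM in treated WT cells, and 44.2, 48.4 and 45.8 CPM untreated and 46.9, 48.8 and 47.4 CPM treated in KO cells. Untreated WT libraries were the lowest of the 11. The log2 difference was 0.30 ± 0.075 for 5-FU in WT cells (FDR = 0.00241), 0.049 ± 0.067 in KO cells (FDR = 0.546) and 0.34 ± 0.068 between untreated KO and WT cells (FDR = 0.000667), and the interaction did not pass (-0.25, FDR = 0.077). Without WT 5-FU replicate 2 the WT difference was 0.17 (FDR = 0.0524). The antisense gene UCKL1-AS1, which shares 157 exon bases, had 4 to 40 counts per library, against 807 or more for UCKL1.

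Set side by side on the per-length scale, the 3 kinase mRNAs stood in different proportions in the 4 states. UCK1 made up 19.5 ± 0.730% of their summed RPKM in untreated WT, 17 ± 0.0796% in treated WT, 25.5 ± 0.427% in untreated KO and 30.2 ± 1.43% in treated KO cells. UCK2 took 42.6 ± 0.429%, 34.9 ± 1.51%, 31.1 ± 1.0% and 25 ± 0.420% in the same order. In treated KO cells UCK1 was thus above UCK2 in each library, whereas in the other 3 states it was below. The sum moved less, from 50.6 ± 4.36 RPKM in treated WT to 57.9 ± 0.660 RPKM in treated KO cells. The values come from groups of 3 libraries, 2 for treated WT cells, and were not tested.

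**Figure D3:**
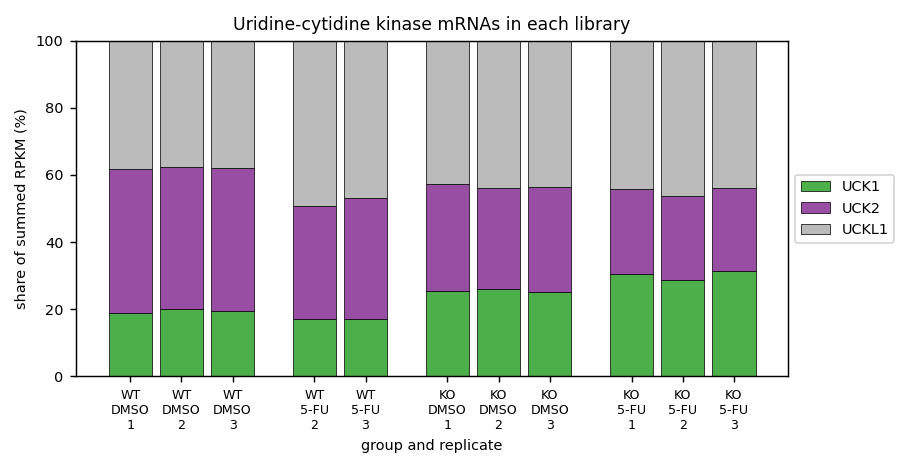
Share of UCK1, UCK2 and UCKL1 in their summed RPKM (y axis, %) in each of the 11 libraries (x axis, by state and replicate; KO, miR-34a/b/c-KO). The UCK1 share runs from 17% in a treated WT library to 31.4% in a treated KO library, and the UCK2 share from 24.6% to 43.0%.

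TK1 (chr17:78174091-78187233, minus strand) encodes the cytosolic thymidine kinase, an S-phase enzyme that also phosphorylates fluorodeoxyuridine. Untreated WT cells gave 340, 356 and 336 CPM, and the 2 treated WT libraries gave 396 and 316 CPM, on either side of them. KO cells gave 301, 312 and 296 CPM untreated and 352, 352 and 369 CPM treated. Treated KO libraries thus lay above untreated KO libraries, and untreated KO below untreated WT libraries. The log2 difference for 5-FU was 0.050 ± 0.074 in WT (FDR = 0.581) and 0.24 ± 0.066 in KO cells (FDR = 0.00524), and the difference between the responses was 0.19 with a 95% interval from -0.022 to 0.40 (FDR = 0.173). Between untreated KO and WT cells it was -0.18 ± 0.066 (FDR = 0.0315, or 0.1 without KO DMSO replicate 3). With 5-FU the genotypes overlapped (0.0045, 95% interval from -0.15 to 0.16).

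DPYD (chr1:97077743-97995000, minus strand) was the lowest member, with 47 to 114 counts per library, so that counting error is a larger part of its spread than for the others. It had 3.32, 3.26 and 3.30 CPM in untreated and 1.61 and 2.09 CPM in treated WT cells. In KO cells it had 4.05, 3.79 and 3.12 CPM untreated and 2.14, 2.12 and 1.96 CPM treated. The 5 treated libraries lay below the 6 untreated ones. DPYD fell 1.80-fold in WT (log2 -0.84 ± 0.19, FDR = 0.000968) and 1.75-fold in KO cells (-0.81 ± 0.17, FDR = 0.000546). The difference between the responses was 0.035 with a 95% interval from -0.49 to 0.56 (FDR = 0.937). The genotypes overlapped in untreated cells (0.14, FDR = 0.487) and in treated cells (0.18, FDR = 0.471). The overlapping gene MIR137HG, on the same strand, was listed with at most 1 count, and DPYD-AS1 with 0. Of the enzymes that follow DPYD in breakdown, DPYS was listed at 0 counts in every library and UPB1 had 3 to 19, too few to be tested.

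CDA (chr1:20589086-20618903, plus strand) encodes cytidine deaminase, which turns cytidine and deoxycytidine nucleosides and their fluorinated analogs into uridine forms. It had 17.2, 18.5 and 17.1 CPM in untreated and 29.2 and 25.3 CPM in treated WT cells. In KO cells it had 20.7, 19.7 and 21.0 CPM untreated and 14.1, 14.8 and 13.4 CPM treated. Treated libraries thus stood above untreated ones in WT cells and below them in KO cells, with overlap in neither. CDA rose 1.55-fold in WT cells (log2 0.63 ± 0.082, FDR = 5.17e-06) and was 1.45-fold lower in KO cells (-0.54 ± 0.078, FDR = 1.96e-05, not called since under 1.5-fold). The responses differed by -1.17 ± 0.11 (95% interval from -1.41 to -0.93, FDR = 2.73e-06). In untreated cells CDA was slightly higher in KO (0.22 ± 0.076, FDR = 0.0258, or 0.0908 without KO DMSO replicate 3), and with 5-FU it was 1.93-fold lower in KO than in WT cells (-0.95 ± 0.083, FDR = 1.61e-07). Without WT 5-FU replicate 2, the rise in WT cells was 0.52 and was no longer called, and the difference between the responses stayed called in all 11 fits that left out a library (-1.27 to -1.06).

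The promoter window of CDA is shown because CDA is the member with a called difference between the responses. The letters TTTNNCGC, which occur in sites of E2F factors, were found on either strand in 6.9% of 27305 RefSeq promoter windows of this length and, among the 10 members, in CDA alone, at position -3 relative to the start (in capitals).
CDA (GRCh38.p14, chr1:20588847-20589146, plus strand): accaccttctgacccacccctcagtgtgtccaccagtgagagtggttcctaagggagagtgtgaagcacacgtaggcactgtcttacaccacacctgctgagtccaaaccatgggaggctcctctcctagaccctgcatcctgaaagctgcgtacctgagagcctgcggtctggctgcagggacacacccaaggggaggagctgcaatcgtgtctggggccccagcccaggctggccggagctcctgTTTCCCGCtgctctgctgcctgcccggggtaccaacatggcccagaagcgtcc
The letters TTTGAA occurred in the UMPS window (15.4% of all windows) and TTTAAA, which reads the same on both strands, in the TK1 window (12.3%). Both are forms of the cell cycle homology region element. None of these letters was found in the windows of the other 7 members. As with the seed matches, these matches describe the letters and were not tested as binding sites.

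The calls above depended on the fold threshold and on a correction for unwanted variation. When the threshold of 1.5-fold was part of the test itself (glmTreat), UPP1 in WT cells after 5-FU, UCK1 and CDA in treated cells and CDA in the interaction stayed called, and TYMP, DPYD, the CDA rise in WT cells, the UPP1 rise in KO cells and the UPP1 genotype difference did not. With 1 RUVg factor in the model no member was called after 5-FU in either genotype, nor between untreated genotypes. Of the variance of that factor, 98.2% lay between treatments, so that this fit has little left to estimate the drug response from. Between genotypes lay 4.52% of it. In untreated cells the KO difference was 0.14 for TYMP, -0.11 for PPAT and 0.43 for UCK1, with FDR of 0.222 or more. UCK2 alone passed FDR there (-0.44, FDR = 0.026). The cause of these changes was not tested. The calls between treated genotypes and in the interaction were the same members under the RUVg fit.

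The other genes of the pathway were taken from 6 lists with 50 genes, of which 43 were tested. After 5-FU, 7 of the 43 were called higher and 6 lower in WT cells (18.5% and 9.38% of all genes), and 6 higher and 7 lower in KO cells (13.3% and 12.0% of all genes). The median log2 difference was -0.12 in WT (0.034 over all genes) and -0.071 in KO cells (-0.059 over all genes). Of the 6 genes of de novo pyrimidine synthesis and PRPP supply, which include CAD and DHODH upstream of UMPS and the PRPP synthetases PRPS1 and PRPS2, none was called in any comparison. By FDR alone, 3 of the 6 were lower after 5-FU in WT (28.3% of all genes) and 1 in KO cells (33.8%). Between untreated KO and WT cells 3 of the 6 were lower by FDR alone (21.9% of all genes) and 0 higher. PRPS2 differed there by -0.58 ± 0.058 (FDR = 6.57e-07, 1.49-fold), and its interaction was 0.41 ± 0.087 (FDR = 0.00285). With 5-FU, 1 of the 6 was higher and 2 were lower in KO by FDR alone (49.6% of all genes in either direction).

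Among 12 nucleotide kinases and ribonucleotide reductase subunits, RRM2B, a subunit induced by p53, rose in both genotypes, from 123 ± 1.42 to 362 ± 69.8 CPM in WT (log2 1.56 ± 0.081, FDR = 1.14e-10) and from 90.4 ± 4.0 to 231 ± 3.98 CPM in KO cells (1.35 ± 0.076, FDR = 2.37e-10). The S-phase subunit RRM2 rose in KO cells (1.02 ± 0.054, FDR = 1.12e-10), while its value in WT cells was -0.079 (FDR = 0.263), and the interaction was 1.10 ± 0.081 (FDR = 2.11e-07). DCK, the deoxycytidine kinase, fell in WT cells by 0.96 ± 0.089 on the log2 scale (FDR = 1.18e-07), with 0.13 in KO cells (FDR = 0.162) and an interaction of 1.09 ± 0.12 (FDR = 7.65e-06). The large subunit RRM1 rose in KO cells (0.63), where NME2 (-0.60) and NME4 (-0.95) fell; these 3, like SLC29A3 and ABCC5 below, were named after their values were seen.

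Of 5 genes around thymidylate synthase and the deoxynucleotide pool, DUT, which removes dUTP, fell in both genotypes, by 1.02 ± 0.077 in WT (FDR = 9.39e-09) and 0.94 ± 0.070 in KO cells (FDR = 7.92e-09). SAMHD1, a deoxynucleotide hydrolase, rose in both, by 0.68 and 0.71. TYMS, the target of FdUMP, had 280.3 ± 18.4 CPM in untreated and 243 ± 1.34 in treated WT cells, and 196 ± 5.2 and 213 ± 10.0 CPM in KO cells. Its log2 differences were -0.20 (FDR = 0.00967) in WT and 0.12 (FDR = 0.0819) in KO cells. The TYMS interaction was 0.32 ± 0.083 (FDR = 0.0102). Untreated KO and WT cells differed in TYMS by -0.51 ± 0.056 (FDR = 1.58e-06, 1.43-fold), and treated ones by -0.19 (FDR = 0.0158). TYMS was called in none of these.

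Of 6 tested nucleotidases, NT5E, the cell surface enzyme that dephosphorylates AMP, rose in both genotypes (0.99 ± 0.066 in WT, FDR = 2.33e-09, and 0.82 ± 0.062 in KO cells, FDR = 1.12e-08). NT5C fell in both (-0.71 and -1.04), and so did the mitochondrial NT5M (-1.29 and -1.36). Among 9 tested carriers and efflux pumps, the nucleoside carrier SLC29A2 fell in both genotypes (-0.71 ± 0.079, FDR = 1.11e-06, and -1.14 ± 0.073, FDR = 1.12e-09), and the pump ABCG2 rose in both (0.62 ± 0.14, FDR = 0.00107, and 1.33 ± 0.12, FDR = 7.27e-08). SLC29A3 (0.90), ABCC5 (0.64) and ABCC11 (1.08) were called higher in WT cells. For ABCC11, a pump for fluorinated nucleotides, the libraries held only 6 to 49 counts, and the FDR was 0.048. The main nucleoside carrier SLC29A1 differed by 0.21 in WT (FDR = 0.0148) and 0.25 in KO cells (FDR = 0.00284), under 1.5-fold. SLC22A7, SLC28A1, SLC28A2 and SLC28A3 had at most 9 counts in a library and were not tested.

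Between the genotypes, 3 of the 43 pathway genes were called in untreated cells, all higher in KO. Of all genes, 9.10% were called higher and 4.97% lower. Of the 43, 7 were higher and 21 lower by FDR alone (46.3% of all genes in either direction, 21.9% lower). The median log2 difference of the 43 was -0.15 (0.026 over all genes). The 3 called genes are named after their values were seen. ABCB1, the multidrug efflux pump, averaged 6.68 ± 0.211 CPM in KO and 1.74 ± 0.180 CPM in WT cells (log2 1.95 ± 0.12, FDR = 3.65e-09), DTYMK, the thymidylate kinase, differed by 0.81 ± 0.070 (FDR = 1.08e-07) and ABCC3 by 0.76 ± 0.065 (FDR = 1.24e-07). Unlike for UCK1, the neighbors of these 3 genes on their chromosomes were not examined. With 5-FU, ABCB1 (1.98), ABCG2 (1.12), DTYMK (1.01), RRM2 (0.71) and DCK (0.65) were called higher in KO cells (7.58% of all genes). ABCC4 (-0.78), RRM2B (-0.65) and NT5E (-0.59) were called lower there (10.6%). By FDR alone, 11 of the 43 were higher and 22 lower with 5-FU (49.6% of all genes in either direction). The median of the 43 was then -0.17 (-0.046 over all genes). In the interaction 4 of the 43 were called, RRM2, DCK, RRM1 (0.72) and ABCG2 (0.71), all higher (3.42% of all genes), and none lower (6.66%). By FDR alone, 8 were higher and 9 lower in the interaction (26.1% of all genes in either direction, 16.0% lower).

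**Figure D4:**
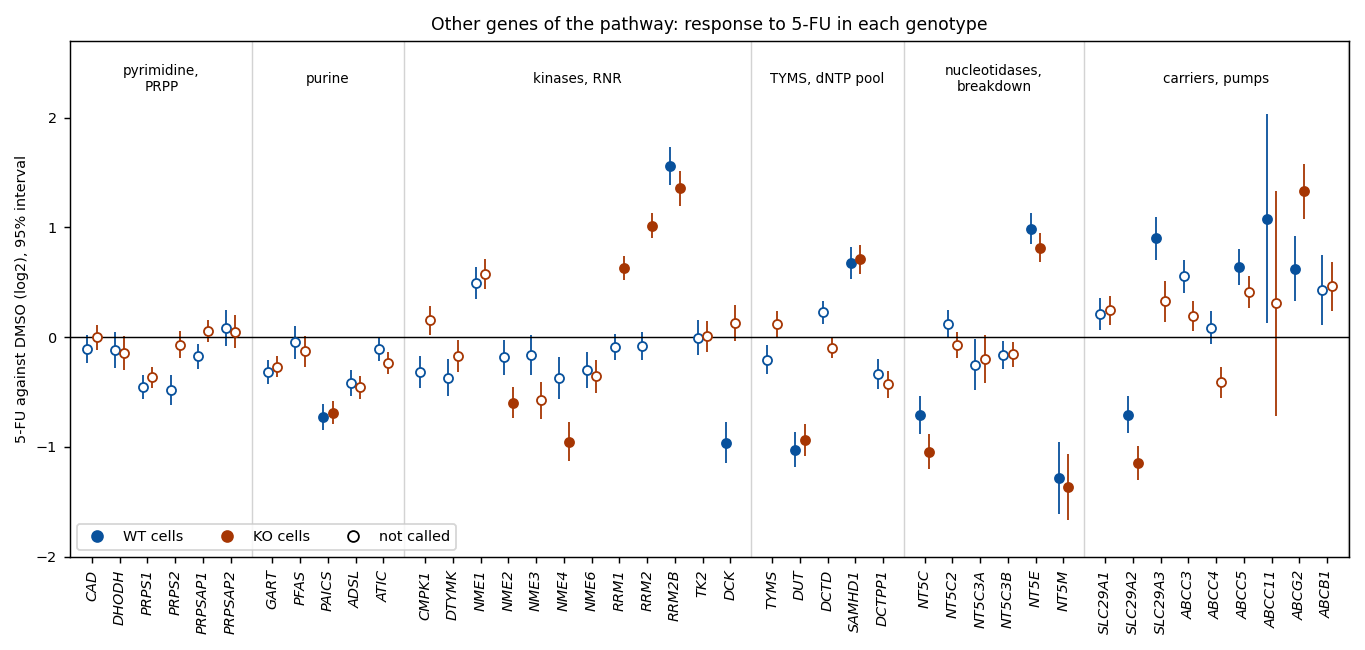
Log2 difference between 5-FU and DMSO (y axis, with 95% intervals) for the 43 tested pathway genes (x axis, by list), in WT (blue) and KO cells (brown; KO, miR-34a/b/c-KO). Filled points are called (FDR under 0.05 and above 1.5-fold) and open points are not; RRM2, at 1.02 in KO and -0.079 in WT cells, and DCK, at -0.96 in WT and 0.13 in KO cells, are among the genes filled in a single genotype.

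The genes whose log2 CPM followed each member most closely over the 11 libraries were looked up among 13190 genes with at least 20 counts in every library. The libraries fall into 4 states, so that Pearson's r mostly reflects the order of the state means and is given as a description. CDA was followed most closely by PCYT2 (r = 0.976), C2orf81 and ZNF622, and UPP1 by POP4 (r = 0.977), F3 and FAM216A. For DPYD these were C5orf15 (r = 0.985), LEPR and YME1L1, and for TYMP they were SELENOW (r = 0.979), PGAP3 and CD99. UCK1 was closest to NCS1 (r = 0.993), MAP3K3 and KCNQ1OT1, UCK2 to TRAP1 (r = 0.99), RGS2 and WDR19, and UCKL1 to EMC10 (r = 0.982), NPDC1 and LTBP3. PPAT had AP1S3 (r = 0.992), IPO7 and SEH1L. The lowest values were those of UMPS with C4orf46 (r = 0.936), RFWD3 and NCAPG2 and of TK1 with LETM1 (r = 0.933), TEDC2 and RELA. No member was among the 3 closest genes of another.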

How the data were processed

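RNA of 12 labelled libraries was sequenced by the authors as 150 bp paired-end reads, aligned to GRCh38 (hg38) and counted on ENSEMBL genes with CLC Genomics Workbench. The deposited files hold raw counts, 1 row per gene symbol. Strand was not stated. One labelled library repeated another and was left out. The 16123 genes that reached 20 counts in 1 or more libraries were kept. With upper-quartile scaling, a single model with 1 mean for each of the 4 states was fitted (edgeR 4.0.16, glmQLFit and glmQLFTest, two-sided, R 4.3.3). Benjamini-Hochberg adjustment covered all genes tested (FDR). Scaling, filter and thresholds follow the methods of the study, without its RUVg step, which was an alternative. CPM were computed from the counts and scaled totals, and RPKM from CPM and the canonical transcript length (GENCODE release 44). Errors of log2 differences are SE and those of levels SD. Correlations used log2 CPM with a prior count of 2. All 10 members were matched to the annotation. The code was tested on simulated counts.

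All members, their values in every library, genes overlapping them and the label checks were named, besides, per pathway list, up to 3 called genes with the largest change after 5-FU and TYMS, DUT, PAICS, SLC29A1, DPYS and UPB1. Pathway genes outside this rule were named after their values were seen. Members, lists and tests were chosen with earlier results of these data known. The correlation of deviations from the state means gave no clear pairing by replicate number in KO cells and could not decide on it in WT cells. The reported fit has no block. Alternatives were TMM factors, DESeq2 1.42.0, 2 other filters, FDR alone, glmTreat, RUVg, replicate blocks, the identical library used as labelled, only the groups compared, and leaving out each library.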

Additional observations from a re-analysis of the deposited data

Results flagged for a closer look

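For 5 of the 10 members the response to 5-FU differed between the genotypes in the test of the difference itself (edgeR interaction, KO response minus WT response, FDR under 0.05). Of all genes tested, 26.1% passed the same test. CDA differed by -1.17 ± 0.11 on the log2 scale (FDR = 2.73e-06). Both treated WT libraries lay above the 3 untreated ones, and the 3 treated KO libraries lay below the 3 untreated ones. UCK1 differed by 0.48 ± 0.11 (FDR = 0.00439), with -0.24 in WT and 0.24 in KO cells. TYMP differed by -0.46 ± 0.12 (FDR = 0.00923), with -0.065 in WT and -0.52 in KO cells. PPAT differed by 0.32 ± 0.089 (FDR = 0.0143), with -0.52 in WT and -0.20 in KO cells. UMPS differed by 0.32 ± 0.087 (FDR = 0.0142), with -0.16 in WT and 0.16 in KO cells. Only the CDA difference exceeds 1.5-fold. All 5 rest on 2 treated WT libraries. With a replicate block within genotype the UMPS difference had FDR of 0.0698. With header numbers in that block the PPAT difference had FDR of 0.0518.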

How the results depend on the processing

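TMM factors, DESeq2 and both other filters on low counts left the number of members called in each comparison as reported. With FDR alone 9 members passed between untreated genotypes, 8 after 5-FU in WT, 9 after 5-FU in KO cells and 5 in the interaction. With glmTreat the first 3 of these counts were 0, 1 and 0, and with RUVg 0, 0 and 0. With the identical library used as labelled, 0 members were called after 5-FU in WT cells, since one of the 3 libraries is then an untreated one, and UPP1 was no longer called between treated genotypes. Over all genes, 2269, 4490, 4069, 2924 and 1624 were called between untreated genotypes, after 5-FU in WT, after 5-FU in KO cells, between treated genotypes and in the interaction. In the same order FDR alone gave 7472, 9712, 9737, 7995 and 4207 and glmTreat 929, 2573, 2247, 1187 and 289. RUVg gave 1428 between untreated genotypes, 3 in WT, 1 in KO cells and 885 in the interaction, and the identical library 0 in WT cells and 428 in the interaction. Leaving out each library in turn gave 1 called member between untreated genotypes, 2 to 4 after 5-FU in WT, 2 in KO cells, 3 between treated genotypes and 1 to 2 in the interaction (TYMP joined CDA without WT 5-FU replicate 3).

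The deviations of same-numbered untreated and treated libraries had correlations of 0.033 and -0.038 in WT and 0.059, 0.089 and -0.045 in KO cells. Not every library matched its own number best. The 2 treated WT libraries deviate from their mean by mirrored amounts, so that the check could not decide on pairing in WT cells. With the replicate block, 1, 3, 2, 3 and 1 members were called in the 5 comparisons, as without it, and the counts were equal with the header numbers, a choice made after seeing the data. A block within genotype, fitted for the 5-FU comparisons and the interaction, gave 3, 2 and 1. The UMPS difference after 5-FU in WT cells had FDR of 0.0813 with the block, 0.18 with the block within genotype, 0.0829 with no filter and 0.121 with only the groups compared. With the block within genotype, the UMPS interaction had FDR of 0.0698 and UMPS in KO cells 0.055. With the header numbers within genotype, UMPS had 0.0517 in WT and 0.0528 in KO cells, UCK1 in WT cells 0.0851 and the PPAT interaction 0.0518. The CDA difference between untreated genotypes had 0.0758 in DESeq2 and 0.109 with no filter, and the UCK1 difference in WT cells 0.0647 with only the groups compared. Between untreated genotypes UMPS passed FDR in 4 and TK1 and CDA in 7 of the 11 fits that left out a library. The block turned the DPYD interaction to -0.00072.

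Signs of single members changed as follows, with the cause not tested except where said. RUVg, whose factor follows the treatment, gave after 5-FU in WT cells 1.13 for UMPS, 1.58 for PPAT, -2.44 for UCKL1, -1.81 for TK1, 2.09 for DPYD and -0.84 for CDA. In KO cells it gave 1.66 for PPAT, -0.37 for UCK1, -2.37 for UCKL1, -1.40 for TK1 and 1.79 for DPYD, with FDR of 0.154 or more in all of these. Between untreated genotypes RUVg gave 0.050 for UMPS, -0.099 for UCKL1 and -0.013 for CDA, between treated genotypes -0.031 for UCKL1 and -0.074 for TK1, and in the interaction 0.068 for UCKL1 and -0.29 for DPYD. The identical library gave -0.17 for DPYD between treated genotypes and, in the interaction, 0.071 for UPP1, -0.10 for UCK2 and -0.31 for DPYD. The filter of 20 counts in every library gave -0.0026 for TK1 between treated genotypes. Leaving out each library gave, after 5-FU in WT cells, -0.12 to 0.20 for TK1 and -0.22 to 0.068 for TYMP. Between treated genotypes it gave -0.0075 to 0.37 for DPYD, -0.26 to 0.019 for PPAT, -0.027 to 0.22 for UCKL1 and -0.15 to 0.18 for TK1, and in the interaction -0.15 to 0.22 for DPYD and -0.020 to 0.071 for UCK2. Depth limits DPYD most, with 47 to 114 counts per library.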
